A study of Mus musculus with 8 samples.

Results

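The genes described here are 9 components of the Hedgehog signalling pathway, chosen by name: the ligand *Shh*, the receptor *Ptch1*, the signal transducer *Smo*, the co-receptor *Boc*, the ligand-binding antagonist *Hhip*, the cytoplasmic regulator *Sufu* and the transcription factors *Gli1*, *Gli2* and *Gli3*. They were 9 of the 23358 genes in the expression table, and all 9 passed the filter on low values. RNA-seq was performed on tissue dissected from the cervical loop, the end from which the mouse incisor keeps growing, in mice 4 weeks old. Tissue was taken from 2 regions, the head (CLH), where the dental epithelial stem cells reside, and the tail (CLT), where their progenies are found. In cKO mice a *Krt14* promoter driven *Cre* acts on floxed *Med1* alleles (exons 8 to 10) in keratin 14 expressing epithelium, so that non-epithelial cells of the same dissection keep *Med1*. Ctrl mice were littermates without *Cre*, and both genotypes were on a C57BL/6 background. Mice came from 2 litters, and each of the 4 groups (Ctrl CLH, cKO CLH, Ctrl CLT and cKO CLT) has 2 libraries. The paper states that cervical loop tissues were pooled in each group, so a library does not stand for a single animal. The p-values below measure only the spread between such libraries.

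In Hedgehog signalling, SHH binds PTCH1 and relieves its inhibition of SMO, which then acts at the primary cilium to free the GLI proteins from SUFU. GLI1, GLI2 and GLI3 in turn switch target genes on or off, and *Ptch1*, *Hhip* and *Gli1* are themselves targets, so that their RNA is widely read as a measure of pathway activity. In the continuously growing incisor, *Shh* is produced by differentiating epithelium of the cervical loop, and both epithelial stem cells and the neighbouring dental mesenchyme respond to it.

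Libraries held 22330512 to 28651106 reads on genes, and the RPKM (read counts scaled to gene length and library size) of the 9 genes rested on 236 to 8715 reads each. The labels give dental epithelial cells as the cell type. Mesenchymal genes were nevertheless abundant, with 2284 to 4745 RPKM summed over the 12 genes of the list in the 8 libraries, and *Dspp*, an odontoblast gene, reached 423 to 654 RPKM in the 4 CLH libraries, so that the libraries hold more than epithelium. In the 2 cKO CLT libraries the enamel and ameloblast markers summed to 19.7 and 15.8 RPKM, while *Krt14* was 558 and 649 RPKM. Of those markers, *Amtn* had 6.88 and 8.72 RPKM there, within its range in CLH (5.48 to 19.3 RPKM). *Dspp* was 0.145 and 0.174 RPKM in the same libraries.

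Ctrl CLT 1 stood apart from Ctrl CLT 2. The 5 keratins of the hair shaft and inner root sheath summed to 2710 RPKM in Ctrl CLT 1 and 7.13 RPKM in Ctrl CLT 2, against 7927 and 8728 RPKM in the cKO CLT libraries and 3.18 to 4.40 RPKM in CLH. Replicates differed over the genes tested by a median of 0.40 log2 units in Ctrl CLT and of 0.09 to 0.11 log2 units in the other 3 groups. The values of comparisons that use Ctrl CLT are therefore also given, for the members and the genes whose calls are described, with 1 of its 2 libraries left out. *Med1* over its whole length was 4.83 and 8.71 RPKM in Ctrl CLT and 9.15 and 8.96 RPKM in cKO CLT. It was 7.71 and 9.12 RPKM in Ctrl CLH and 7.10 and 7.03 RPKM in cKO CLH. A whole-gene value does not check a deletion of exons 8 to 10, and in CLT it was not lower in the libraries labelled cKO, so cKO below names the label.

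**Figure D1:**
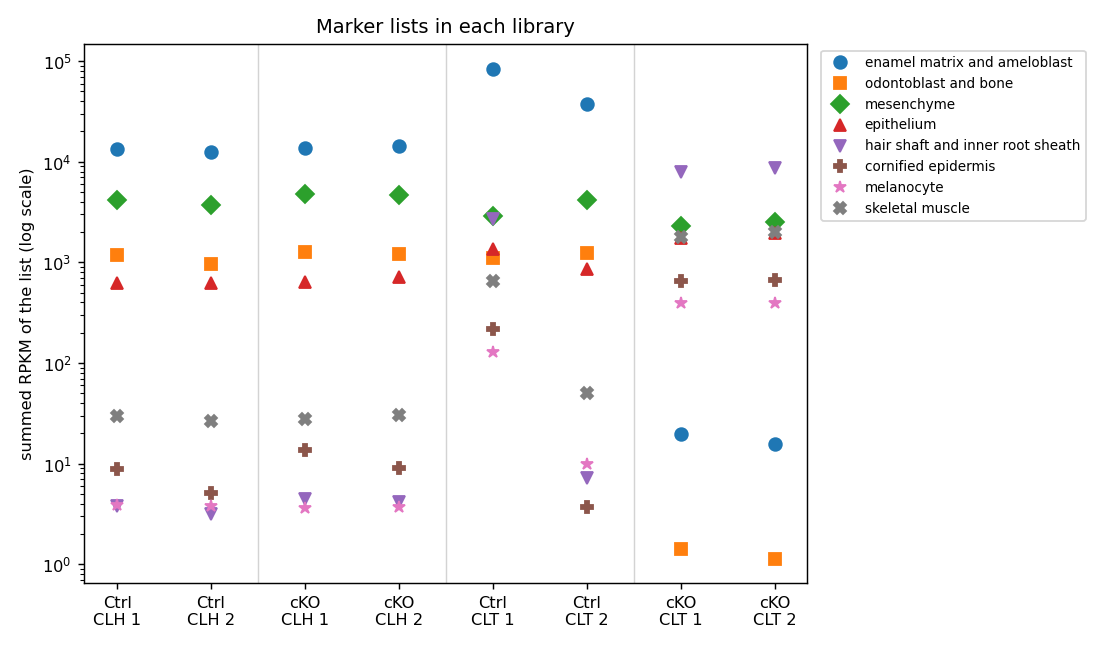
Summed RPKM (log scale) of 8 of the 13 marker lists in each of the 8 libraries, 1 symbol per list. Enamel markers (19.7 and 15.8 RPKM) and odontoblast markers (1.43 and 1.13 RPKM) have their lowest sums in the 2 cKO CLT libraries. Hair, epidermal, melanocyte and muscle markers are high in cKO CLT and, at lower levels, in Ctrl CLT 1.

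The ligand gene *Shh* showed the widest range of the 9 genes. Ctrl CLH libraries measured 65.2 and 87.6 RPKM against 54.4 and 61.9 RPKM for cKO CLH, and Ctrl CLT libraries 10.5 and 46.1 RPKM against 4.13 and 3.52 RPKM for cKO CLT. All CLH libraries were above all CLT libraries, both cKO CLT libraries were below every other library, and the Ctrl CLT libraries differed 4.39-fold from each other. By mean RPKM *Shh* ranked 1 of the 9 genes in Ctrl CLH (76.4 ± 15.9, SD, n = 2) and 8 in cKO CLT (3.83 ± 0.43, SD, n = 2). The gene lies at chr5:28456840-28467101 on the minus strand (mm10, as for the positions below). Its exons overlap those of 9530036O11Rik on the other strand, which had 5 to 45 reads per library, and those of Gm26894, also on the other strand.

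*Ptch1* (chr13:63511533-63565520), the receptor and a target gene, measured 49.3 and 45.0 RPKM in Ctrl CLH and 54.6 and 52.0 RPKM in cKO CLH. In CLT it measured 11.9 and 28.6 RPKM in Ctrl and 10.5 and 11.5 RPKM in cKO. Ctrl CLT 1 thus lay close to the cKO libraries and Ctrl CLT 2 well above them. *Smo* (chr6:29735497-29761366), which carries the signal across the membrane, had the same order of groups over a narrower range. In CLH it had 43.5 and 43.9 RPKM in Ctrl against 41.8 and 47.3 RPKM in cKO, and in CLT 29.6 and 34.6 RPKM in Ctrl against 24.5 and 26.8 RPKM in cKO.

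*Boc* (chr16:44485045-44558870) encodes a co-receptor that binds SHH and promotes signalling, and it was highest where *Shh* was lowest. In CLH it had 5.18 RPKM in both Ctrl libraries and 4.68 and 5.03 RPKM in cKO. In CLT it had 4.95 and 4.0 RPKM in Ctrl and 8.78 and 8.64 RPKM in cKO. The 2 cKO CLT libraries were the highest of the 8. *Hhip* (chr8:79965851-80058008) encodes a membrane protein that binds and withholds the ligand. It was 8.93 and 12.8 RPKM in Ctrl CLH and 7.02 and 8.82 RPKM in cKO CLH, and 1.12 and 5.41 RPKM in Ctrl CLT and 1.10 and 0.953 RPKM in cKO CLT. As for *Ptch1*, Ctrl CLT 1 was next to the cKO libraries, and the 2 Ctrl CLT libraries differed 4.83-fold.

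*Sufu* (chr19:46396918-46486660), the inhibitor that holds GLI proteins in the cytoplasm, lay between 4.42 and 8.36 RPKM in the 8 libraries. CLH had 7.55 and 7.41 RPKM in Ctrl against 8.20 and 8.36 RPKM in cKO. CLT had 4.42 and 7.14 RPKM in Ctrl against 6.18 and 8.21 RPKM in cKO, so that the genotypes overlapped there and not in CLH.

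Of the transcription factors, *Gli1* (chr10:127329882-127341579), an activator and a target of the pathway, was the most abundant in every group. It measured 68.8 and 69.2 RPKM in CLH of Ctrl and 70.5 and 78.6 RPKM in CLH of cKO, and then 32.6 and 38.5 RPKM in CLT of Ctrl and 17.9 and 19.6 RPKM in CLT of cKO. The 3 levels (CLH, Ctrl CLT and cKO CLT) did not overlap, and the Ctrl CLT libraries differed only 1.18-fold. *Gli1* exons overlap those of *Arhgap9* on the other strand, and the strand setting of the read counting is not given in the sources used here, so reads in the overlap cannot be told apart. *Arhgap9* had 1.64 to 4.83 RPKM in the 6 other libraries and 9.0 and 10.4 RPKM in cKO CLT, the opposite direction to *Gli1*. *Gli1* exons also overlap Gm47200, and those of *Hhip* and *Gli3* overlap Gm27820 and Gm6556, all annotated RNAs of the other strand.

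*Gli2* (chr1:118834061-119053619), the main activator early in signalling, was 6.36 and 5.34 RPKM in Ctrl CLH and 6.34 and 6.77 RPKM in cKO CLH. In CLT it was 6.20 and 3.85 RPKM in Ctrl and 5.28 and 5.76 RPKM in cKO, with overlap between the genotypes. *Gli3* (chr13:15463723-15730025), best known as a repressor in the absence of ligand, was 15.9 and 15.8 RPKM in Ctrl CLH and 17.2 and 15.2 RPKM in cKO CLH. In CLT it was 5.60 and 15.8 RPKM in Ctrl and 5.49 and 5.23 RPKM in cKO. Ctrl CLT 2 had the level of CLH, and Ctrl CLT 1 was just above the cKO libraries.

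Ordered by mean RPKM, Ctrl CLH ran *Shh*, *Gli1*, *Ptch1*, *Smo*, *Gli3*, *Hhip*, *Sufu*, *Gli2* and *Boc*. Of the neighbours in that order, *Shh* and *Gli1* had overlapping libraries and the others did not. In cKO CLH *Gli1* came before *Shh* and *Sufu* before *Hhip*, the libraries of *Shh* overlapped those of *Ptch1*, and those of *Sufu* overlapped those of *Hhip*. In Ctrl CLT the libraries of every pair of neighbours overlapped. In cKO CLT the order was *Smo*, *Gli1*, *Ptch1*, *Boc*, *Sufu*, *Gli2*, *Gli3*, *Shh* and *Hhip*, where *Gli2* and *Gli3* overlapped and the other neighbours did not. The 9 genes together summed to 265 to 292 RPKM in the 4 CLH libraries, 107 and 184 RPKM in Ctrl CLT, and 83.9 and 90.2 RPKM in cKO CLT. In bulk tissue, fewer cells of an expressing type and less RNA per cell cannot be told apart.

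**Figure D2:**
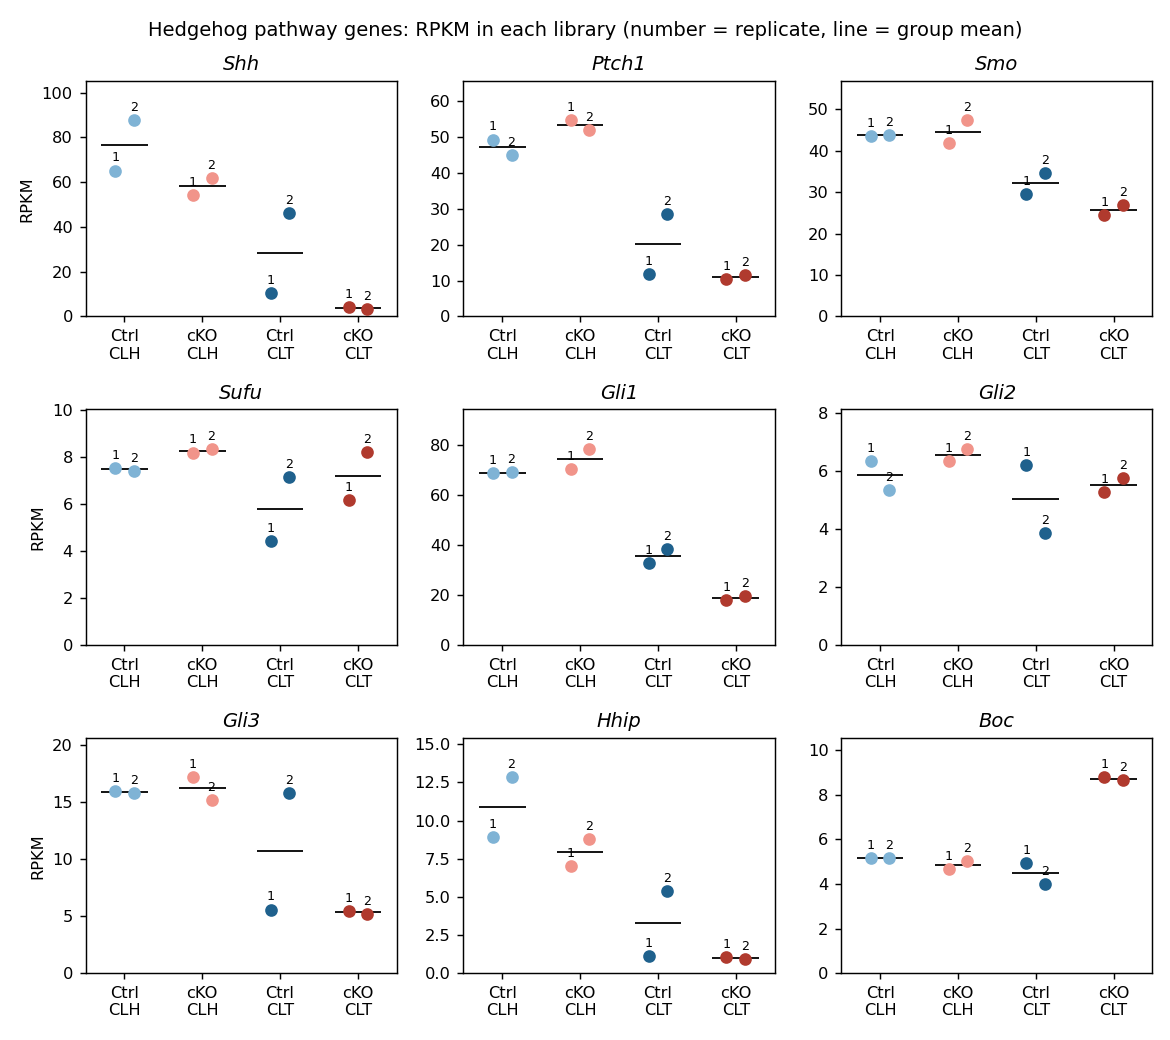
RPKM (linear axis from 0) of each of the 9 genes in the 8 libraries. Points are libraries numbered by replicate and lines are group means. *Shh*, *Ptch1*, *Hhip* and *Gli3* show the split between Ctrl CLT 1 and Ctrl CLT 2, *Gli1* is lower in Ctrl CLT than in CLH and lowest in cKO CLT, and *Boc* is highest in cKO CLT.

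RefSeq promoters (GRCm38.p6, the assembly also called mm10; 250 bases before to 50 bases after the gene start) matched 6 of the 9 genes, *Ptch1*, *Smo*, *Hhip*, *Sufu*, *Gli2* and *Gli3*. Entries for *Shh*, *Gli1* and *Boc* were missing. Shown are *Ptch1* (chr13:63565686-63565985, minus strand), *Hhip* (chr8:80057959-80058258, minus strand) and *Gli3* (chr13:15463473-15463772, plus strand) and *Smo* (chr6:29735247-29735546, plus strand), the 4 matched genes that fell past the threshold from CLH to CLT in cKO, and *Gli2* (chr1:119053570-119053869, minus strand), which did not pass that test. The *Ptch1* window lies wholly upstream of the gene position given above, because RefSeq and the deposited table place the gene start differently. Capitals mark the GC box GGGCGG and the GLI core ACCACCC, each on either strand.
Ptch1: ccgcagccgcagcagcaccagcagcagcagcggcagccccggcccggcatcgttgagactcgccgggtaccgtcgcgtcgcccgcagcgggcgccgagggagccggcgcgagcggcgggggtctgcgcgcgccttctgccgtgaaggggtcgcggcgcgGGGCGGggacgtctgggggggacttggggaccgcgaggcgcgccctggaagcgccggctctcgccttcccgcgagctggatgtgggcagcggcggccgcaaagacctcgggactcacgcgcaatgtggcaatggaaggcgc
Hhip: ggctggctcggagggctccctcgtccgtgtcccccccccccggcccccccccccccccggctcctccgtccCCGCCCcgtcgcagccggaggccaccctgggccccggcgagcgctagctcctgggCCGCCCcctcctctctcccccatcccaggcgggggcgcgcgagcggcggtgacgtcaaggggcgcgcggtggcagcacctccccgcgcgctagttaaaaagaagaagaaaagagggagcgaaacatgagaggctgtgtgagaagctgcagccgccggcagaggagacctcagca
Gli3: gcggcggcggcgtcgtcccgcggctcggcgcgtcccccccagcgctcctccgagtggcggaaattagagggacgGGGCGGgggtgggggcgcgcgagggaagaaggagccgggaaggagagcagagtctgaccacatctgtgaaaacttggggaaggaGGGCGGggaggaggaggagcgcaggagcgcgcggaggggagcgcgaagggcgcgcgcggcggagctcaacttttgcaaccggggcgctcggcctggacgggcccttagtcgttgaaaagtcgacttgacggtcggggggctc
Smo: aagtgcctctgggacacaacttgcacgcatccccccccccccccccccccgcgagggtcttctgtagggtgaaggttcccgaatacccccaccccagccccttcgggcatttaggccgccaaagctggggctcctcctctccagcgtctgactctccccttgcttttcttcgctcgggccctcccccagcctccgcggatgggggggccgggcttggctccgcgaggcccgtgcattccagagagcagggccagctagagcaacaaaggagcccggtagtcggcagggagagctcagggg
Gli2: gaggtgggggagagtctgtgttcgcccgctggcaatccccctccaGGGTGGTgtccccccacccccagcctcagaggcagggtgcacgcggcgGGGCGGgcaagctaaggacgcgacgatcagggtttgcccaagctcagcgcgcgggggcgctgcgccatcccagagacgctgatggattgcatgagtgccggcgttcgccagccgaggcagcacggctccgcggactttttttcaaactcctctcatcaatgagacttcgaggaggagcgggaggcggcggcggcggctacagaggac

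The GLI consensus GACCACCCA was found in 0 of the 6 promoters and in 0.253% of all 32851 promoters of the same length. Its 7-base core ACCACCC was in 1 of the 6, that of *Gli2*, as GGGTGGT, against 4.61% of all promoters. The GC box was in 5 of the 6, all but *Smo*, against 35.7% of all. The 6 promoters had 56.3% to 76.3% G and C (median of all promoters, 52.7%) and 12 to 47 CpG (median of all, 7). These matches describe letters in a short window and say nothing of binding there or elsewhere.

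The comparison of cKO with Ctrl in CLT asked how the pathway genes differ where the progenies of the stem cells lie. For 6 members (*Shh*, *Ptch1*, *Smo*, *Hhip*, *Gli1* and *Gli3*) both cKO libraries were below both Ctrl libraries (35.1% of all genes), and for *Boc* both were above (37.2% of all genes). None of the 9 passed the threshold (an adjusted p under 0.05, limma over all genes tested), against 1.75% of the 14148 genes tested. At an unadjusted p under 0.05 there were 2 lower (*Shh* and *Gli1*, against 16.4% of all genes) and 1 higher (*Boc*, against 19.8%). Voom on the recovered reads called 0 of 9. The share of all genes that voom called is not given, so its counts here and below are not read as results about these genes. The largest difference was that of *Shh*.

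*Shh* was 2.74 times the cKO mean in Ctrl CLT 1 and 12.1 times in Ctrl CLT 2. The log2 fold change, here and below on the log2(RPKM + 1) scale, was -2.27 (SE 0.73, adjusted p = 0.12, limma). *Gli1* was 1.74 and 2.05 times the cKO mean in the same libraries, which is -0.89 on the log2 scale (SE 0.16, adjusted p = 0.069, limma). For *Boc* the Ctrl libraries stood at 0.568 and 0.459 of the cKO mean, and the log2 fold change was 0.83 (SE 0.18, adjusted p = 0.077, limma). *Gli1* and *Boc* had the smallest adjusted p of the 9.

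The values of *Hhip*, *Gli3* and *Ptch1* were -0.87 (SE 0.59), -0.73 (SE 0.50) and -0.71 (SE 0.44) on the log2 scale, with adjusted p of 0.33, 0.34 and 0.30 by limma. In each, Ctrl CLT 2 was 2.6 to 5.28 times the cKO mean and Ctrl CLT 1 only 1.04 to 1.09 times. *Smo* was at -0.31 (SE 0.16, adjusted p = 0.23, limma), *Sufu* at 0.29 and *Gli2* at 0.14. The median of the 9 genes was -0.71, against -0.01 over all genes tested. With 2 libraries against 2, an exact permutation test of a single gene cannot give a p under 0.333.

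Without Ctrl CLT 1, which leaves 1 Ctrl library assumed to vary like the cKO pair, 6 members were lower and 2 higher past the threshold, against 69.5% of all genes. *Shh* was then at -3.29, *Hhip* at -1.66, *Gli3* at -1.41, *Ptch1* at -1.30, *Gli1* at -1.0 and *Smo* at -0.42, and *Boc* at 0.96 and *Gli2* at 0.43. Without Ctrl CLT 2 instead, 2 members were lower (*Shh* at -1.26 and *Gli1* at -0.77) and 2 higher (*Boc* and *Sufu*), against 52.1% of all genes. Without Ctrl CLT 2, *Smo*, *Ptch1*, *Hhip* and *Gli3* were at -0.20, -0.11, -0.07 and -0.05. Members whose genotypes did not overlap in CLT must keep their direction with either Ctrl library alone. Their direction in the refits therefore adds nothing to that separation. The share of all genes that passed in both refits is not given, and each refit has 1 Ctrl library. Passing in both is therefore not read as a result about these genes.

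Marker lists moved with this comparison. The 5 hair keratins were higher in both cKO libraries than in both Ctrl libraries for 5 of 5 genes, melanocyte markers for 5 of 5 (summed RPKM 128 and 9.89 in Ctrl, 394 and 396 in cKO) and skeletal muscle markers for 6 of 6 (658 and 49.7 in Ctrl, 1807 and 1987 in cKO). No hair, melanocyte or muscle gene of these lists passed the threshold, and 37.2% of all genes were separated in that direction. Enamel and ameloblast markers fell in 7 of 7 genes past the threshold, from 84584 and 37392 RPKM summed in Ctrl to 19.7 and 15.8 RPKM in cKO. Odontoblast and bone markers fell in 5 of 6, from 1115 and 1228 to 1.43 and 1.13 RPKM summed. The mesenchymal list, in which 10 of 12 genes were lower without any passing the threshold, summed to 2910 and 4179 RPKM in Ctrl and 2284 and 2535 RPKM in cKO. Of the other lists, cornified epidermis was higher in cKO for 4 of 4 genes (219 and 3.69 RPKM summed in Ctrl, 659 and 670 RPKM in cKO), and leukocyte markers were lower for 4 of 4 (115 and 158 RPKM in Ctrl, 94.2 and 89.0 RPKM in cKO). No cornified epidermis or leukocyte gene passed the threshold. The epithelial list was higher for 5 of 6 genes, and the 5 stem cell genes were higher for 2 and lower for 3, with *Igfbp5* past the threshold as lower. The Schwann and neural list was higher for 4 of 5 genes, the endothelial list higher for 3 of 5, and the erythroid list lower for the 1 gene tested. Their part in the values of the Hedgehog genes was not tested. Since the marker lists differ between the genotypes in CLT, the genotype and the make-up of the dissected tissue cannot be told apart in any value for cKO against Ctrl there.

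In CLH, which holds the stem cells, the 9 genes lay close together in the genotypes. Log2 fold changes ranged from -0.40 (*Hhip*) to 0.18 (*Ptch1*), and 0 of 9 passed the threshold, as did 0% of all genes tested by limma. At an unadjusted p under 0.05 the count was 0 of 9, against 7.26% of all genes. Voom on the recovered reads also called 0 of 9.

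*Shh* in CLH was at -0.38 on the log2 scale (95% interval -0.80 to 0.05), with both cKO libraries below both Ctrl libraries. *Hhip* (interval -0.93 to 0.13) and *Boc* at -0.08 lay on the same side, while *Ptch1* (interval -0.01 to 0.36), *Sufu* at 0.13 and *Gli1* at 0.11 had both cKO libraries above both Ctrl libraries. Such separation held for 38.7% of all genes. The remaining members, *Smo*, *Gli2* and *Gli3*, overlapped. The intervals do not show that the genotypes were alike. They leave room for a *Shh* that is lower by up to 0.80 on this scale.

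**Figure D3:**
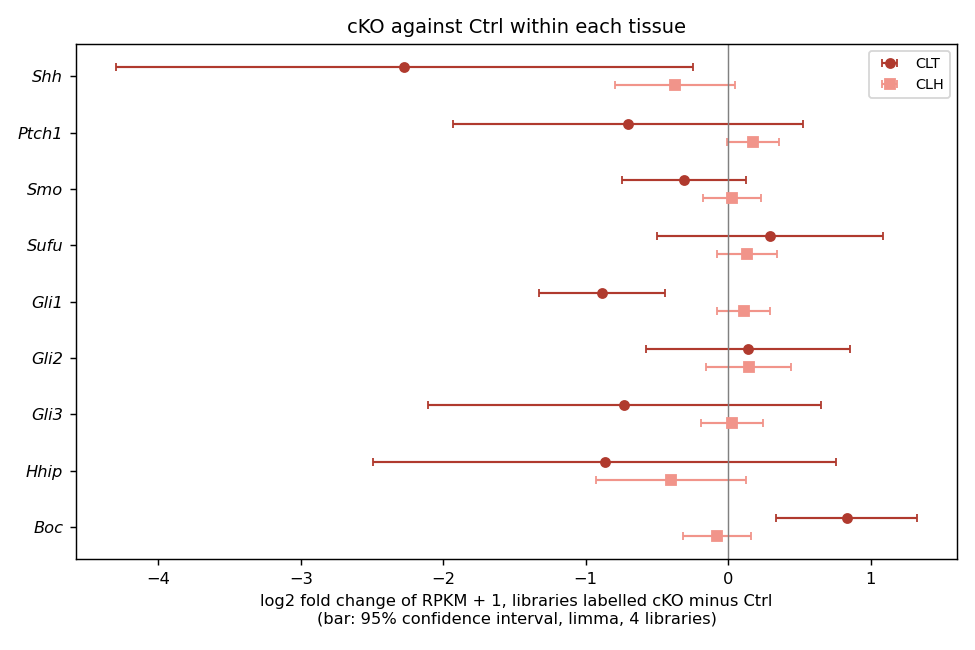
Log2 fold change of RPKM + 1, cKO minus Ctrl, for the 9 genes in CLT (circles) and CLH (squares), each from limma on 4 libraries, with 95% confidence intervals. The intervals of *Shh*, *Gli1* and *Boc* in CLT exclude 0 without adjustment, and all 9 values in CLH lie between -0.40 and 0.18.

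Whether cKO and Ctrl differed by another amount in CLT than in CLH was tested over all 8 libraries as an interaction. This fit pools the spread of all 4 groups into 1 error per gene. Replicates differed by a median of 0.40 log2 units in Ctrl CLT and of 0.09 to 0.11 in the other groups. The spread of Ctrl CLT is thus understated, and calls can come too easily. Of the 9 genes 2 passed, *Gli1* at -0.99 (SE 0.16, adjusted p = 0.016, limma) and *Boc* at 0.91 (SE 0.18, adjusted p = 0.026, limma), against 17.6% of all genes tested. *Shh* had the largest difference, -1.90 (95% interval -3.95 to 0.16), and did not pass (adjusted p = 0.15, limma). With Ctrl CLT 1 left out it was -2.91, with Ctrl CLT 2 left out -0.88, and it passed in both refits (adjusted p = 9.9e-06 and 0.013, limma), where 63.1% and 46.6% of all genes did. *Ptch1* was higher in both cKO libraries than in both Ctrl libraries in CLH and lower in both in CLT, a difference of -0.88 that did not pass (adjusted p = 0.24, limma). That of *Ptch1* was -1.48 without Ctrl CLT 1 (adjusted p = 2.3e-05, limma) and -0.28 without Ctrl CLT 2 (adjusted p = 0.11, limma), so its size and its call turn on which Ctrl CLT library is used.

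The other 5 differences had adjusted p of 0.18 to 0.995. Without Ctrl CLT 1, *Gli3* (-1.43), *Hhip* (-1.26) and *Smo* (-0.44) passed as well, and without Ctrl CLT 2 they stood at -0.08, 0.33 and -0.22 and did not. The calls of *Gli1* and *Boc* were lost when any CLH or cKO CLT library was left out, where their adjusted p was 0.065 to 0.12, and held without either Ctrl CLT library. The marker values given above for CLT stand beside these calls too.

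CLT was then compared with CLH within each genotype, which asks where along the cervical loop each gene is expressed. These comparisons share libraries with those above. In Ctrl, all 9 genes had lower means in CLT, and 7 of them, all but *Gli2* and *Gli3*, had both CLT libraries below both CLH libraries, as did 36.8% of all genes. None passed the threshold, against 0.00707% of all genes, which is 1 gene, and voom called 0. The unadjusted p was under 0.05, and lower in CLT, for *Ptch1*, *Smo* and *Gli1* (9% of all genes).

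Log2 fold changes in Ctrl were -1.72 for *Shh* (SE 0.75), -1.67 for *Hhip* (SE 0.61), -1.29 for *Ptch1* (SE 0.44) and -0.94 for *Gli1* (SE 0.14, adjusted p = 0.30, limma). The median over all genes was itself -0.13 in Ctrl and -0.18 in cKO, and 0.01 and 0.02 after median-of-ratios scaling. Relative to that median, *Shh* stood at -1.58, *Hhip* at -1.53, *Ptch1* at -1.16 and *Gli1* at -0.81, and *Boc* at -0.05 and *Gli2* at -0.08 were close to it. Without Ctrl CLT 2, 7 members passed as lower (53.3% of all genes passed), and without Ctrl CLT 1 only *Gli1* did (3.31% of all genes), so the calls in Ctrl rest on which CLT library is used. Without Ctrl CLT 1, *Shh* was at -0.70, *Hhip* at -0.87, *Ptch1* at -0.70, *Gli1* at -0.83 and *Gli3* at -0.0035. Without Ctrl CLT 2 the same genes were at -2.74, -2.47, -1.89, -1.06 and -1.36.

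In cKO, 6 members fell from CLH to CLT and 1 rose, where 74% of all genes tested passed (45.1% lower and 28.9% higher). The log2 fold change of *Shh* was -3.62 (SE 0.11, adjusted p = 1.7e-08, limma), followed by *Ptch1* with -2.18 (SE 0.09), *Hhip* with -2.13 (SE 0.12), *Gli1* with -1.94 (SE 0.09), *Gli3* with -1.43 (SE 0.10) and *Smo* with -0.77 (SE 0.10). *Boc* rose by 0.73 (SE 0.10, adjusted p = 1.6e-04, limma). *Sufu* at -0.19 and *Gli2* at -0.21 did not pass, and relative to the median of all genes they stood at -0.01 and -0.03.

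Relative to that median the 6 genes that fell remained lower, from -0.59 (*Smo*) to -3.44 (*Shh*), and *Boc* stood at 0.91. Median-of-ratios scaling moved the share of higher genes among all calls from 39.0% to 51.9% and left the members at 6 lower and 1 higher. Under it *Sufu* changed sign, to 0.01. Summed enamel and odontoblast markers were low in the cKO CLT libraries and hair, melanocyte and muscle markers high, as given above. The part of these markers in the differences was not tested.

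**Figure D4:**
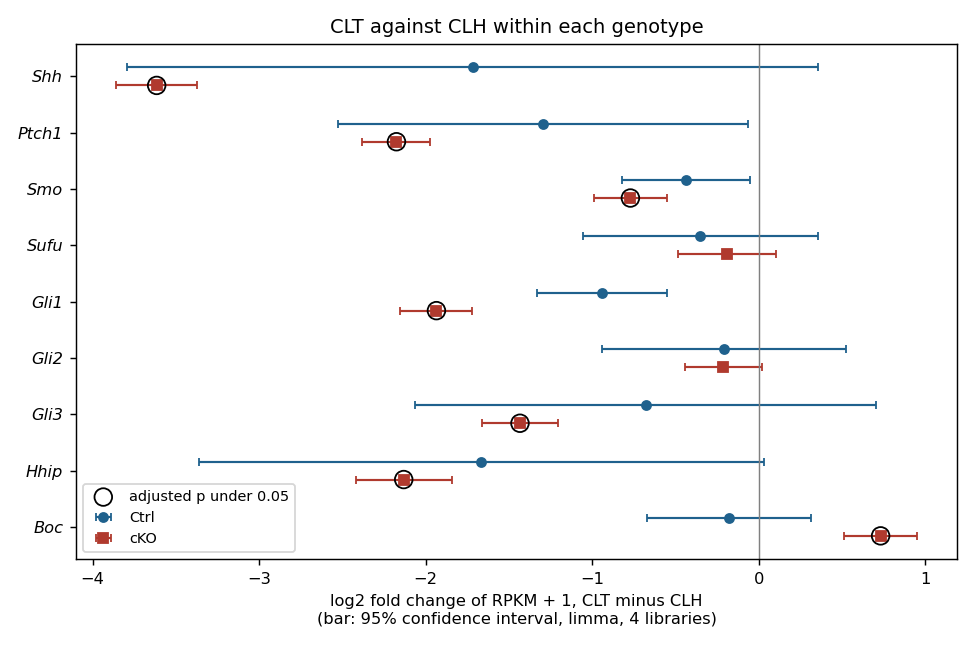
Log2 fold change of RPKM + 1, CLT minus CLH, for the 9 genes in Ctrl (circles) and cKO (squares), each from limma on 4 libraries, with 95% confidence intervals. Rings mark an adjusted p under 0.05, which 7 genes reached in cKO and none in Ctrl, where the intervals are wider.

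Over the 8 libraries, which form 4 groups and are not 8 independent conditions, log2(RPKM + 1) of *Shh* ran with that of *Hhip* (Pearson r = 0.972), *Gli3* (0.965), *Smo* (0.952), *Ptch1* (0.951) and *Gli1* (0.950). *Boc* ran the other way (-0.815 with *Shh* and -0.743 with *Gli1*), and *Gli2* had r = 0.0456 with *Shh*. Among the 14147 other genes tested, those most like *Shh* in pattern were Olfr1372-ps1, *Ankrd10*, *Foxd2*, *Rcbtb1* and 4933439C10Rik, with r of 0.998 to 0.999. Olfr1372-ps1, a pseudogene by its name, had 25.6 to 50.4 RPKM in CLH, 2.40 and 21.1 RPKM in Ctrl CLT, and 0.121 and 0.145 RPKM in cKO CLT. Those most like *Ptch1* were *Plch1*, *Zbtb12*, *Pdgfrl*, BC018507 and *Vwf*, with r of 0.994 to 0.997. Those most like *Gli1* were *Foxi3*, C130050O18Rik, *Hdac6*, *Ctdsp1* and *Pomt2*, with r of 0.997 to 0.999. *Foxi3*, a forkhead gene of tooth and hair ectoderm, had 5.13 to 6.03 RPKM in CLH, 1.16 and 1.56 RPKM in Ctrl CLT, and 0 and 0.0912 RPKM in cKO CLT. All points of these correlations share their libraries, depth and groups.

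Of 50 other pathway genes listed by role, 48 were in the table and 42 passed the filter. In CLT, 2 of the 42 fell in cKO and 0 rose by limma (1.75% of all genes passed in either direction; 0 of the 42 by voom), with a median of -0.34. At an unadjusted p under 0.05 there were 12 lower and 8 higher, against 16.4% and 19.8% of all genes, so that the count of higher genes was close to the share over all genes. *Scube3*, which encodes a secreted protein that helps to release the ligand, measured 14.4 and 15.7 RPKM in Ctrl CLT and 2.51 and 3.21 RPKM in cKO CLT. Its log2 fold change was -2.06 (SE 0.18, adjusted p = 0.040, limma), with 25.6 to 34 RPKM in the CLH libraries. *Foxf2*, a mesenchymal transcription factor gene listed as a target, was 9.74 and 21.4 RPKM in Ctrl CLT and 0.121 and 0.124 RPKM in cKO CLT (8 reads each), or -3.79 in log2 units (SE 0.41, adjusted p = 0.048, limma). With only 1 Ctrl CLT library, replicate 2 or replicate 1, *Scube3* was at -2.12 and -2.0 and *Foxf2* at -4.32 and -3.26.

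Other genes of the release and ligand-binding steps went both ways in CLT without passing there. *Scube1* and *Gpc3* were lower in cKO. *Scube2* was higher, with 1.39 and 1.37 RPKM in Ctrl CLT and 1.79 and 1.88 RPKM in cKO CLT, as was *Hhatl*, given below. *Scube1*, a relative of *Scube3*, was 4.98 and 28.9 RPKM in Ctrl CLT and 1.08 and 1.17 RPKM in cKO CLT (adjusted p = 0.11, limma), against 45.6 to 50.6 RPKM in CLH. *Gpc3*, a glypican that competes with the receptor for ligand, was 65.8 and 137 RPKM in Ctrl CLT and 26.2 and 25.8 RPKM in cKO CLT (adjusted p = 0.077, limma). With Ctrl CLT 2 or Ctrl CLT 1 alone, *Scube1* was at -3.82 and -1.49 and *Gpc3* at -2.35 and -1.31. Both fell from CLH to CLT within cKO, *Scube1* with -4.57 and *Gpc3* with -2.57 on the log2 scale (adjusted p = 2.1e-09 and 2.8e-08, limma).

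Among the 24 cytoplasmic and ciliary regulators, *Sufu* included, 0 passed in CLT. *Dzip1*, a ciliary protein gene, was 8.45 and 20.8 RPKM in Ctrl CLT and 3.30 and 3.07 RPKM in cKO CLT. *Evc*, which acts with SMO at the cilium, was 8.93 and 15.9 RPKM in Ctrl CLT and 4.68 and 5.55 RPKM in cKO CLT. The kinase gene *Ulk3* ran the other way, with 9.52 and 4.13 RPKM in Ctrl CLT against 23.7 and 22.8 RPKM in cKO CLT, a log2 fold change of 1.72 (adjusted p = 0.081, limma). With Ctrl CLT 2 or Ctrl CLT 1 as the only Ctrl library, *Ulk3* was at 2.24 and 1.21, *Dzip1* at -2.38 and -1.17 and *Evc* at -1.47 and -0.70. *Hhatl*, a relative of the acyltransferase gene *Hhat* that is known from muscle and heart, was 1.25 and 0 RPKM in Ctrl CLT and 3.68 and 4.01 RPKM in cKO CLT, in parallel with the muscle markers above.

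The difference between regions passed for 9 lower and 6 higher of the 42, against the 17.6% given above. It included *Scube3* (-2.33), *Foxf2* (-3.62), *Gpc3* (-1.72) and *Ulk3* (1.73). With Ctrl CLT 1 or Ctrl CLT 2 left out, in that order, *Scube3* was at -2.39 and -2.27 and *Foxf2* at -4.15 and -3.09. In the same order *Gpc3* was at -2.24 and -1.20 and *Ulk3* at 2.25 and 1.21. Within cKO, 26 of the 42 fell from CLH to CLT and 7 rose, against 45.1% and 28.9% of all genes. Within Ctrl 0 passed (0 by voom), and at an unadjusted p under 0.05 there were 9 lower, against 9% of all genes, and 0 higher. The other ligand genes did not pass the filter, with *Ihh* at 0 to 0.126 RPKM and *Dhh* at 0.397 to 0.991 RPKM in the 8 libraries, so that *Shh* was the only ligand gene tested.

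**Figure D5:**
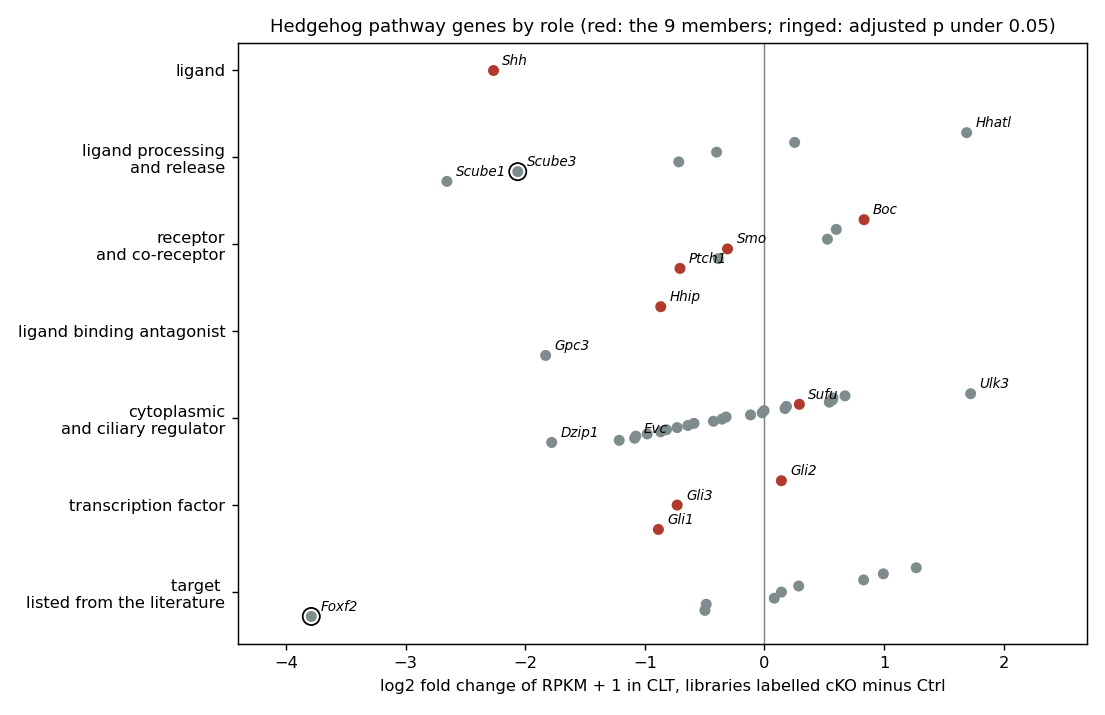
Log2 fold change of RPKM + 1 in CLT, cKO minus Ctrl, of the 51 pathway genes tested, by role and sorted within each role. Red points are the 9 genes named at the start, grey points the other 42, and rings mark the 2 genes with an adjusted p under 0.05, *Scube3* and *Foxf2*.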

How the data were processed

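Reads came from libraries made with the Illumina TruSeq v2 kit and sequenced paired-end (50 bp). Per the submitters' processing notes and the study's methods, the tools were FastQC 0.72, Trim Galore 0.4.3.1, STAR 2.6.0b-1, featureCounts 1.6.3 and DESeq2 2.11.40.2 with mm10. The annotation and the strand setting are not given in the sources used here. The authors deposited RPKM for 23358 genes in 8 columns, 1 per library, and 0 columns were left unused. Undoing the length scaling gave whole reads, within 0.01, for 100% of the values checked, and so the reads behind each value.

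Groups were taken from the labels. From the RPKM, log2(RPKM + 1) was tested with limma 3.58.1 (lmFit, trended eBayes; R 4.3.3), for the 14148 genes that reached an RPKM of 1 in 2 or more of the 8 libraries, with Benjamini-Hochberg adjustment over all of them and a threshold of 0.05. RPKM are not counts, so DESeq2 was not used. Each comparison used its own 4 libraries, and the difference between regions all 8. Same-numbered CLH and CLT libraries of 1 genotype deviated together (r of their deviations from the group means, 0.20 in Ctrl and 0.31 in cKO), but those of different genotypes did not (-0.19 to 0.066). No source ties a number to a litter, so no pairing was assumed.

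The 9 genes, the pathway list and the marker lists (73 of 76 marker genes in the table, 13 lists) were chosen with earlier results of these data known. All 9 were named, with 8 other pathway genes by the smallest adjusted p in any comparison, the largest change in each role, and the 5 genes most correlated with *Shh*, *Ptch1* and *Gli1*. *Ihh* and *Dhh* were named after their values were seen. Overlapping genes were read from GENCODE M21. Alternatives were pseudocounts of 0.1 and 0.5, other scalings, no filter on low values, all 8 libraries in 1 fit, a replicate block, other eBayes settings, voom on the recovered reads and each library left out. The scripts were tested on simulated data.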

Additional observations from a re-analysis of the deposited data

Results flagged for a closer look

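The difference between cKO and Ctrl was not the same size in CLT and CLH for 6 of the 17 pathway genes named by the rule, by the interaction test over all 8 libraries in limma, against 17.6% of all genes tested. The rule takes 8 of the 17 by the size of their adjusted p or change, so this count is not a sample of the pathway. The test pools the spread of all groups, which understates the wider spread of Ctrl CLT, so its calls can come too easily. In log2 units and relative to CLH, the cKO libraries in CLT were lower for *Gli1* (-0.99, SE 0.16, adjusted p = 0.016), *Scube3* (-2.33, SE 0.19, adjusted p = 0.0024), *Foxf2* (-3.62, SE 0.46, adjusted p = 0.0087) and *Gpc3* (-1.72, SE 0.43, adjusted p = 0.044), and higher for *Boc* (0.91, SE 0.18, adjusted p = 0.026) and *Ulk3* (1.73, SE 0.46, adjusted p = 0.0495). For *Ptch1*, both cKO libraries were above both Ctrl libraries in CLH and below them in CLT. The test of that difference (-0.88, SE 0.50, adjusted p = 0.24, limma) did not pass, and the value was -1.48 with Ctrl CLT 1 left out and -0.28 with Ctrl CLT 2 left out. The calls of *Gli1* and *Boc* were lost when any CLH or cKO CLT library was left out, and that of *Boc* with the replicate number as a block (adjusted p = 0.051, limma). No group had 4 or more libraries, so none was searched for a single library that stands apart by a formal rule.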

How the results depend on the processing

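Over the alternatives, 675 of 747 log2 fold changes of the 9 genes counted as unchanged. This means the same direction and the same side of the threshold. For log2 ratios of group mean RPKM, which have no p-value, it means a distance from the main value under the spread between replicates. A further 18 changed sign, and the others gained or lost the threshold or moved by more than that spread. In CLT, all 8 libraries in 1 fit called 1 member higher (*Boc*) and 2 lower (*Shh*, *Gli1*) for cKO against Ctrl, with 8 and 14 other pathway genes, where 43.7% of all genes passed. That fit also pools the spread of the groups and understates that of Ctrl CLT. Without the low-value filter, and by voom, the 2 other pathway genes lower in CLT became 0. In Ctrl the 1-fit model called 1 member and 6 other genes lower in CLT than in CLH. For the difference between regions, no filter left 3 higher and 5 lower other genes. Counts here and below without a share of all genes beside them are not read as results about the pathway.

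Leaving out 1 library moved the counts for cKO against Ctrl in CLT over 0 to 2 members higher and 0 to 6 lower, and 0 to 11 other genes higher and 0 to 24 lower. It moved the difference between regions over 0 to 1 members higher and 0 to 6 lower, and 0 to 11 other genes higher and 1 to 24 lower, and CLT against CLH in Ctrl over 0 to 7 members lower, 0 to 3 other genes higher and 0 to 24 lower. In most of these refits 1 library stood for a group.

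For cKO against Ctrl, leaving out single libraries gave *Sufu* in CLT -0.0017 (without Ctrl CLT 1) to 0.59, *Gli2* in CLT -0.14 (without Ctrl CLT 2) to 0.43, and *Smo* and *Gli3* in CLH -0.062 to 0.11 and -0.057 to 0.11. For the difference between regions it gave *Sufu* -0.13 to 0.46, *Gli2* -0.29 to 0.28 and *Hhip* -1.26 to 0.33 (without Ctrl CLT 2), and for CLT against CLH in Ctrl *Gli2* -0.50 to 0.076. The difference between regions of *Gli2* also turned to 0.0056 and 0.0011 with pseudocounts of 0.1 and 0.5, 0.040 with median-of-ratios scaling, 0.0082 with quantile normalization and 0.075 by voom, and *Sufu* from CLH to CLT in cKO to 0.0076 with median-of-ratios scaling. With 1 Ctrl CLT library left out, chosen for these genes after seeing the data, CLT against CLH in Ctrl ranged from -1.19 to 0.014 for *Dzip1*, -0.041 to 1.13 for *Hhatl* and -0.38 to 0.65 for *Ulk3*. The cause was not tested.

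With the replicate number as a block, 1 member was lower in CLT (*Shh*), with 2 other pathway genes higher and 5 lower (12.3% of all genes passed), and for the difference between regions 0 members were higher (*Boc*, adjusted p = 0.051, limma), with 2 and 5 other genes. With the replicate numbers crossed in CLT, a pairing chosen after seeing the data, 0 members and 0 other genes passed. The numbers give no known pairing. Each group has 2 libraries, and one stands apart in Ctrl CLT. Values of the 9 genes rest on at least 236 reads, but *Foxf2* rests on 8 reads in each cKO CLT library and *Hhatl* on 0 in Ctrl CLT 2.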
